A study of Mus musculus with 12 samples.

Results

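The miR-200 family, miR-203 and miR-205 are microRNAs best known from epithelial cells, and their levels were followed here in a fibroblast line under ER stress. The 7 miRNAs, miR-200a, miR-200b, miR-200c, miR-141, miR-429, miR-203 and miR-205, were chosen by name as the plain mature mouse probe sets, and are 7 of the 717 mature mouse miRNA probe sets in the data. The choice was made with earlier results of these data known. Their probe sets are mmu-miR-200a_st, mmu-miR-200b_st, mmu-miR-200c_st, mmu-miR-141_st, mmu-miR-429_st, mmu-miR-203_st and mmu-miR-205_st, and all 7 had a value on every array. The cells were NIH3T3, an established mouse embryonic fibroblast line, grown in DMEM with fetal bovine serum and proliferating asynchronously. Cells were exposed to 2 μg per ml tunicamycin for 2, 5 or 10 h, and the 0 h cells were left untreated, with 3 arrays for each of these 4 groups. Tunicamycin blocks N-linked glycosylation, so that unfolded proteins gather in the ER and the unfolded protein response is activated. Since no untreated cells were taken at 2, 5 or 10 h, tunicamycin and time in culture or handling cannot be told apart. The labels do not say whether the arrays of a group came from separate cultures, so a p-value here covers the array-to-array spread alone, and that may be technical.

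A microRNA is cut from a hairpin precursor and guides silencing of mRNAs that pair with its seed, bases 2 to 8. The members of the miR-200 family repress Zeb1 and Zeb2, transcription factors that silence E-cadherin, and ZEB proteins in turn repress the miR-200 genes. MiR-205 shares these targets and is abundant in stratified epithelia, and miR-203 restrains p63 in the skin and so favours differentiation. Fibroblasts are mesenchymal cells, in which these miRNAs are usually low.

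The mature strands are shown because their seeds define the groups below and because close sequences can be read by each other's probes. All 7 were matched by name in the RefSeq miRNA annotation of the mouse assembly GRCm38.p6, with the plain name taken as the 5p arm for miR-205 and as the 3p arm for the others. The seed is in capitals, 5′ to 3′.
miR-205: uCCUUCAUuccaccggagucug
miR-200c: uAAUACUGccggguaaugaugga
miR-200b: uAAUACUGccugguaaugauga
miR-429: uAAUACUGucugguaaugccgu
miR-200a: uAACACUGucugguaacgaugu
miR-141: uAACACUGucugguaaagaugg
miR-203: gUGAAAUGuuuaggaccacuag
The 7 miRNAs carry 4 seeds. MiR-200c, miR-200b and miR-429 share AAUACUG, while miR-200a and miR-141 share AACACUG. MiR-205 and miR-203 each have a seed of their own, and no other mature mouse miRNA in the RefSeq table carries any of the 4. Counted from 1 at the 5′ end, miR-200c and miR-200b differ by the substitutions G11U and G22A, with miR-200c first, and miR-200c is longer by 1 base. MiR-200a and miR-141 differ by C17A and U22G, with miR-200a first. No mature mouse miRNA outside the family lay within 4 edits of a member, and miR-205 and miR-203 had no neighbour within that distance at all.

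The miR-200 family lies at a pair of loci. On the minus strand of chromosome 6, the miR-200c hairpin (chr6:124718322-124718390) and the miR-141 hairpin (chr6:124717914-124717985) are 336 bases apart. On the minus strand of chromosome 4, the hairpins of miR-200b (chr4:156055681-156055750), miR-200a (chr4:156054896-156054985) and miR-429 (chr4:156053905-156053987) are separated by 695 and 908 bases, and all 3 lie within the long non-coding RNA gene Gm13648. MiR-205 (chr1:193507463-193507530, minus strand) lies within its host gene Mir205hg, and miR-203 (chr12:112130880-112130955) is on the plus strand. All positions are those of GRCm38.p6.

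Values are log2 probe set intensities that the authors normalized with RMA. As the tables carry no detection calls, a background limit was computed for each array as the most frequent value of its 1412 mouse probe sets plus 3 times the spread below it. The limits lay between 2.97 and 3.23, and 52.2% to 55.8% of mature probe sets were above them. In each of the 0 h and 5 h groups, array 2 stood apart from the other two, and the pair deviated together (r = 0.60 over probe sets), so results that rest on these deviating arrays are also given without them. In lists written with earlier results of these data known, all 11 fibroblast miRNAs were above the limit on the 0 h arrays. So were 6 of 10 other epithelial miRNAs, whereas all 9 pluripotent cell miRNAs were below it on every array. The 12 arrays were fitted together in limma, and calls were made where the p-value, after Benjamini-Hochberg adjustment over the 717 probe sets, was under 0.05. For 1 miRNA on its own, 3 arrays against 3 allow no exact permutation p below 0.1.

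MiR-205 and miR-200c fell within 2 h of tunicamycin and were at background from 5 h, and miR-200b fell from a level close to the limit. The other 4, miR-203, miR-200a, miR-141 and miR-429, were above the limit on no array, and of these miR-203 and miR-200a had lower values after tunicamycin that passed the test. As the 7 were chosen with earlier results of these data known, the counts and medians that follow are descriptions and no test of the group. Lower calls were made for 5 of the 7 miRNAs at 2 h, where 5.86% of all mature probe sets were called lower. The same number was called lower at 5 h, against 4.04% of all, and at 10 h, against 7.11% of all. No member was called higher, beside 7.39% of all probe sets at 2 h, 4.32% at 5 h and 5.58% at 10 h. The 3 treated arrays lay below all 3 arrays of 0 h for 5 members at each time, which held for 12.6% of all mature probe sets at 2 h, 9.48% at 5 h and 12.8% at 10 h. The median log2 change of the 7 at 2, 5 and 10 h was −1.11, −1.35 and −1.23, beside 0.03, 0.03 and 0.02 for all 717. That median is the fitted change of miR-203, whose values were all below the limit, and is no measured size of a fall. In a fit of the 0 h and 5 h arrays alone with the replicate number as a block, 19 of all probe sets were called at 5 h, against 60 without the block over 12 arrays, and the members called lower stayed at 5. With both deviating arrays left out, 5, 4 and 4 members were called lower at 2, 5 and 10 h, and the call that was lost was that of miR-200a. These are bulk samples, in which fewer cells that carry a miRNA and less of it per cell cannot be told apart.

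**Figure D1:**
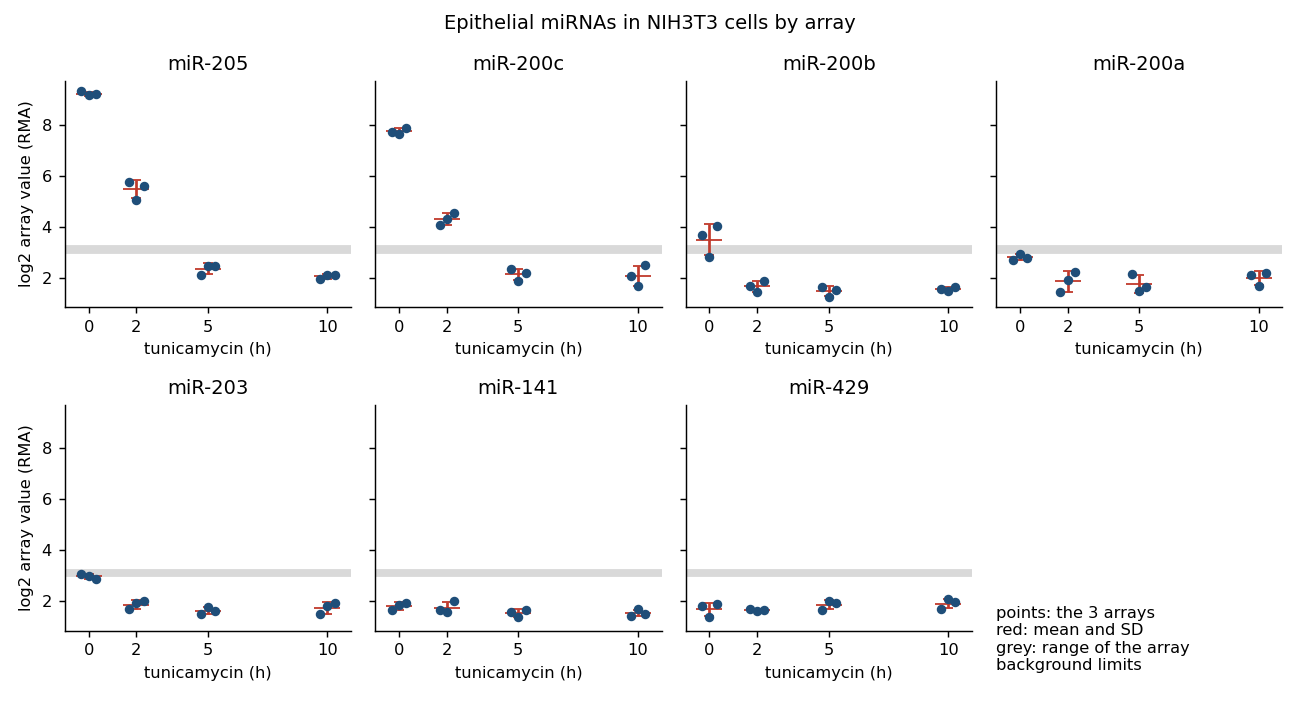
Log2 array values (RMA) of the 7 miRNAs on each of the 12 arrays, by hours of tunicamycin, with points for the 3 arrays of a time point, red lines for mean and SD, and a grey band for the range of the background limits. MiR-205 and miR-200c stood far above the band at 0 h, were still above it at 2 h and lay below it at 5 and 10 h, while miR-141 and miR-429 lay below it at all times.

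MiR-205 had log2 values of 9.30, 9.16 and 9.18 on the 0 h arrays, then 5.73, 5.06 and 5.59 after 2 h, 2.09, 2.47 and 2.45 after 5 h, and 1.94, 2.10 and 2.11 after 10 h. The groups of 0 h and 2 h overlapped neither with each other nor with the later times, and all 6 arrays of 5 and 10 h were below the background limit. The mean was 5.46 ± 0.36 at 2 h, against 9.21 ± 0.08 at 0 h (SD, n = 3 each), which is 13.5-fold lower. In limma the log2 change at 2 h was −3.75 (95% confidence interval −4.22 to −3.29, adjusted p = 3.5e-08). Measured from the 0 h mean to the background limits, the fall was at least 69.5-fold at 5 h, with an adjusted p of 6.6e-12 in limma, and at least 70.0-fold at 10 h, with an adjusted p of 3.7e-12. With both deviating arrays left out, the fitted changes at 2, 5 and 10 h were −3.78, −6.97 and −7.19.

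The fall of miR-205 was spread over the first 5 h. From 2 h onward it fell again, by at least 5.16-fold at 5 h against 2 h (fitted log2 difference −3.12, adjusted p = 2.9e-07 in limma). The values at 10 h and 5 h were all below the limit, with a fitted difference of −0.29 (interval −0.76 to 0.18, adjusted p = 0.65 in limma), so a further fall was not measurable on these arrays.

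MiR-200c, the miR-200 family member that shares a locus with miR-141, gave values of 7.70, 7.65 and 7.86 at 0 h, followed by 4.06, 4.30 and 4.54 after 2 h, 2.32, 1.88 and 2.17 after 5 h, and 2.05, 1.65 and 2.47 after 10 h. As for miR-205, the arrays of 0 h and 2 h stood apart from each other and above the limit, and those of 5 and 10 h were below it and overlapped. The mean was 4.30 ± 0.24 at 2 h, against 7.74 ± 0.11 at 0 h (SD, n = 3 each), which is 10.8-fold lower. The fitted log2 change was −3.44 (interval −3.98 to −2.89, adjusted p = 5.0e-07 in limma). At 5 h the fall from 0 h was at least 25.0-fold (adjusted p = 5.5e-10 in limma), and at 10 h at least 25.1-fold (adjusted p = 4.7e-10). With both deviating arrays left out its fitted changes at the 3 times were −3.48, −5.54 and −5.72.

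Between 2 h and 5 h, miR-200c fell again, by at least 2.31-fold (adjusted p = 3.2e-05 in limma), where the fitted log2 difference of −2.18 ends below the limit, and 10 h differed from 5 h by −0.06 (interval −0.61 to 0.48, adjusted p = 0.94). At 5 h against 2 h, 2 of the 7 members were called lower, where 4.88% of all mature probe sets were, and at 10 h against 2 h it was again 2 of 7, with a background of 5.16%. In these comparisons the later arrays all lay below those of 2 h for the same number, 2 of 7, beside 12.6% of all probe sets at 5 h and 15.1% at 10 h. At 10 h against 5 h no member was called in either direction by limma, 0 of the 7 had an unadjusted p under 0.05, and 3.77% of all probe sets were called lower and 5.58% in either direction. All 7 were below the limit on every array of both times, so these missing calls do not show that levels stayed the same. Over the first 2 h, miR-205 changed by 0.32 more on the log2 scale than miR-200c (difference −0.32, two-sided exact permutation p = 0.4, where 0.1 is the smallest possible with 3 arrays against 3). As this test could not reach 0.05, it does not decide whether the sizes of the falls at 2 h differed. At later times both falls are bounds.

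**Figure D2:**
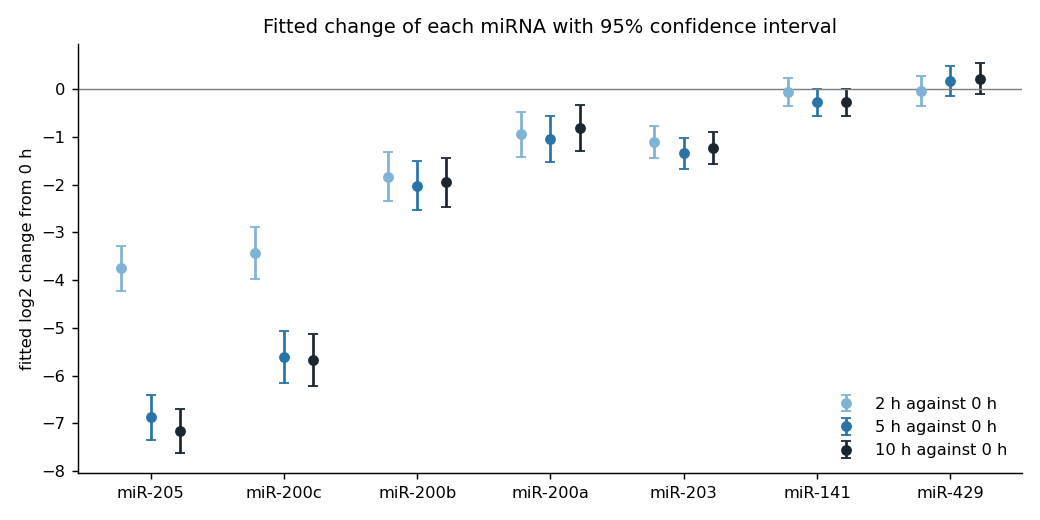
Fitted log2 change of each of the 7 miRNAs at 2, 5 and 10 h against 0 h, with 95% confidence intervals from limma over 12 arrays. The intervals of miR-205 and miR-200c at 5 and 10 h lay below those at 2 h, whereas the 3 intervals of miR-200b, of miR-203 and of miR-200a overlapped, and those of miR-141 and miR-429 included 0. Changes that end below the background limit are fitted values and not measured folds.

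MiR-200b, which has the seed of miR-200c but is made from the locus on chromosome 4, had values of 3.65, 2.81 and 4.01 at 0 h, followed by 1.67, 1.42 and 1.87 after 2 h, 1.64, 1.24 and 1.51 after 5 h, and 1.53, 1.45 and 1.64 after 10 h. It was above the limit on 2 of the 3 arrays at 0 h, array 2 being the exception, and on none of the 9 treated arrays. Every treated array was nevertheless below every 0 h array. The fall was at least 1.39-fold at 2 h (fitted log2 change −1.84, adjusted p = 1.0e-04 in limma), at least 1.32-fold at 5 h (−2.03, adjusted p = 4.8e-05) and at least 1.32-fold at 10 h (−1.95, adjusted p = 4.5e-05). These bounds start from the 0 h mean of 3.49 ± 0.61 (SD, n = 3) and do not take in its spread. With the methods' t-test miR-200b was not called at any time (adjusted p = 0.093, 0.16 and 0.064 at 2, 5 and 10 h after Benjamini-Hochberg). Without 0 h array 2 the fitted changes at 2, 5 and 10 h were −2.18, −2.36 and −2.29, and with both deviating arrays left out they were −2.18, −2.25 and −2.29. MiR-200b moved with miR-200c, from which it differs by 2 substitutions and 1 base of length (Pearson r = 0.91 over the 12 arrays, which share 4 time points), and whether its probes read miR-200c was not tested.

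MiR-203 had values of 3.06, 2.99 and 2.88 at 0 h, followed by 1.68, 1.93 and 2.00 after 2 h, 1.50, 1.77 and 1.63 after 5 h, and 1.49, 1.81 and 1.94 after 10 h. The 0 h arrays lay just under their limits of 3.11, 3.18 and 3.02, and all 9 treated arrays lay below them without overlap. The fitted log2 changes at 2, 5 and 10 h were −1.11, −1.35 and −1.23, and all passed the test in limma, with adjusted p of 1.9e-04, 4.2e-05 and 5.9e-05. No fold is given, since no array was above the limit. The treated times did not differ from each other beyond their spread, with adjusted p between 0.43 and 0.78 in limma.

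MiR-200a, the neighbour of miR-200b on chromosome 4, had values of 2.69, 2.93 and 2.77 at 0 h, followed by 1.42, 1.89 and 2.23 after 2 h, 2.16, 1.46 and 1.62 after 5 h, and 2.09, 1.68 and 2.19 after 10 h. All 12 were below the limit, and the 9 treated values were lower than the 3 at 0 h. The fitted log2 changes at 2, 5 and 10 h were −0.95, −1.05 and −0.81, with adjusted p of 0.011, 0.009 and 0.025 in limma, and again no fold is given. It was not called with the methods' t-test (adjusted p = 0.13, 0.18 and 0.092 after Benjamini-Hochberg). With both deviating arrays left out, the changes at 5 and 10 h were −0.84 and −0.75 and were no longer called (adjusted p = 0.098 and 0.052 in limma).

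Neither miR-141 nor miR-429 passed the test at any time. MiR-141 had values of 1.65, 1.85 and 1.94 at 0 h and between 1.37 and 2.01 on the 9 treated arrays. MiR-429 had 1.79, 1.39 and 1.88 at 0 h and between 1.62 and 2.07 on the treated arrays. All 24 values were below the limit, and the treated and 0 h arrays overlapped. The fitted log2 change at 10 h was −0.28 for miR-141 (interval −0.56 to 0.01, adjusted p = 0.23 in limma) and 0.22 for miR-429 (interval −0.09 to 0.54, adjusted p = 0.41). No fold can be given for either at this signal, and a missing call does not show that they were unchanged. Thus within the locus on chromosome 6 the plain strand of miR-200c was read well above background at 0 h and that of miR-141 was not, and within the locus on chromosome 4 miR-200b and miR-200a were called lower and miR-429 was not.

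**Figure D3:**
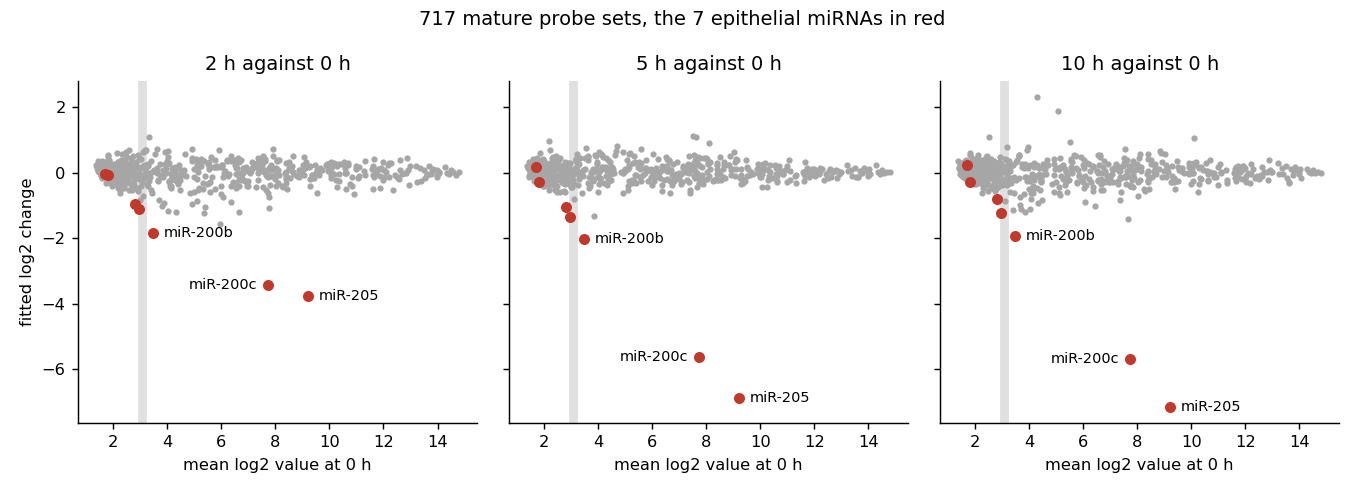
Fitted log2 change at 2, 5 and 10 h against the mean log2 value at 0 h for the 717 mature probe sets, with the 7 miRNAs in red and the range of the background limits as a grey band. MiR-205, miR-200c and miR-200b had the 3 most negative fitted changes in each panel, which end below the limit and are no measured folds except for miR-205 and miR-200c at 2 h, and the other 4 started below or within the band.

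Over all 4 times, the moderated F test of limma called 5 of the 7 miRNAs, where 21.8% of all mature probe sets were called. The adjusted p was 8.3e-12 for miR-205, 9.8e-10 for miR-200c, 2.8e-05 for miR-200b, 3.3e-05 for miR-203 and 0.0095 for miR-200a, against 0.3 for miR-141 and 0.5 for miR-429. MiR-205 and miR-200c followed each other closely over the 12 arrays (r = 0.99), and over the 9 treated arrays alone r was 0.96. With miR-205, r was 0.87 for miR-200b, 0.91 for miR-203, 0.71 for miR-200a, 0.65 for miR-141 and −0.47 for miR-429. These correlations describe 12 arrays that share 4 time points, and values below the limit carry little of their own.

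Among the 385 other mature probe sets above the limit on all 3 arrays of at least 1 time point, the pattern most like that of miR-205 over the 12 arrays was that of miR-200c, followed by miR-199b* (r = 0.93), miR-106a (0.88), miR-28 (0.86) and miR-466e-3p (0.85). The same 5 places around miR-200c were held by miR-205 (0.99), miR-199b* (0.92), miR-106a (0.88), miR-466e-3p (0.83) and miR-28 (0.83). Their changes were small beside those of miR-205 and miR-200c. MiR-199b*, a star strand of a fibroblast miRNA, averaged 10.24, 10.03, 9.81 and 9.66 at 0, 2, 5 and 10 h, with a log2 change of −0.58 at 10 h (adjusted p = 1.2e-05 in limma). The changes of the others at 10 h were −0.19 for miR-106a, −0.24 for miR-28 and −0.25 for miR-466e-3p, with adjusted p between 0.0017 and 0.027 in limma. Over the 9 treated arrays alone, miR-28 had r = 0.95 with miR-205 and 0.97 with miR-200c, around that of the pair with each other. MiR-199b* had r = 0.86 and 0.87, and miR-106a and miR-466e-3p had r between 0.47 and 0.58. The mean of miR-28 was 10.62 at both 0 h and 2 h, 10.36 at 5 h and 10.39 at 10 h. Unlike miR-205 and miR-200c, it was thus not lower after 2 h. With each array shifted to 1 median, miR-106a, miR-28 and miR-466e-3p were no longer called at 10 h (adjusted p between 0.34 and 0.43 in limma).

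The arrays also read the opposite arm, the star strand, of 5 of the genes, and the hairpins of all 7. They bear on whether the other products of these genes moved. Only 1 of them, miR-141*, the 5p arm of miR-141, was above the limit on all 12 arrays. The plain 3p arm of the same hairpin was above it on none. Whether the probes of miR-141* read another RNA was not tested. The hairpins of miR-141, of miR-200c and of miR-205 are shown with the mature strands that the arrays read above background, and the 3p arm of miR-141, in capitals.
miR-141 hairpin: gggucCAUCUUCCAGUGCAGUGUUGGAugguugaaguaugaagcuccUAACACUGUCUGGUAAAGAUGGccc
miR-200c hairpin: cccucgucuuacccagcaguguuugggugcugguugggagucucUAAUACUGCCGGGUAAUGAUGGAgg
miR-205 hairpin: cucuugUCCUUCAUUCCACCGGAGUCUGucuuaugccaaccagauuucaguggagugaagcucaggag

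MiR-141* had values of 5.84, 5.29 and 5.59 at 0 h, followed by 4.96, 5.44 and 5.43 after 2 h, 5.23, 5.51 and 5.26 after 5 h, and 5.61, 5.55 and 5.53 after 10 h. The groups overlapped. Its log2 change was −0.30 at 2 h (interval −0.71 to 0.11, adjusted p = 0.40 in limma), −0.24 at 5 h (−0.65 to 0.17, adjusted p = 0.58) and −0.01 at 10 h (−0.42 to 0.40, adjusted p = 0.98). These intervals do not reach the falls of miR-200c, whose hairpin is its neighbour on chromosome 6, at any of the 3 times. As the source of the miR-141* signal was not tested, they do not show that a product of this locus stayed level. The other 4 star strands, of miR-200a, miR-200b, miR-200c and miR-203, had values between 1.42 and 3.26, with 1 of 48 above the limit. No star strand was called at 2, 5 or 10 h by limma, where 13.2%, 8.37% and 12.7% of all mature probe sets were called in either direction, and 0, 1 and 0 of the 5 had an unadjusted p under 0.05. That 1 was miR-200b* at 5 h, with a fitted change of −0.59 (adjusted p = 0.15 in limma).

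The 8 hairpin probe sets of the 7 genes, of which miR-141 has 2, had values between 1.42 and 3.37, with 4 of 96 above the limit. None was called by limma at 2, 5 or 10 h against 0 h, none had an unadjusted p under 0.05, and 0% of the 690 hairpin probe sets were called in these comparisons. The miR-205 hairpin, for example, averaged 2.34, 2.21, 2.14 and 2.15 at 0, 2, 5 and 10 h. Since nearly all of these values were below the limit, no fold can be given for the precursors, and a missing call does not show that they were unchanged.

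**Figure D4:**
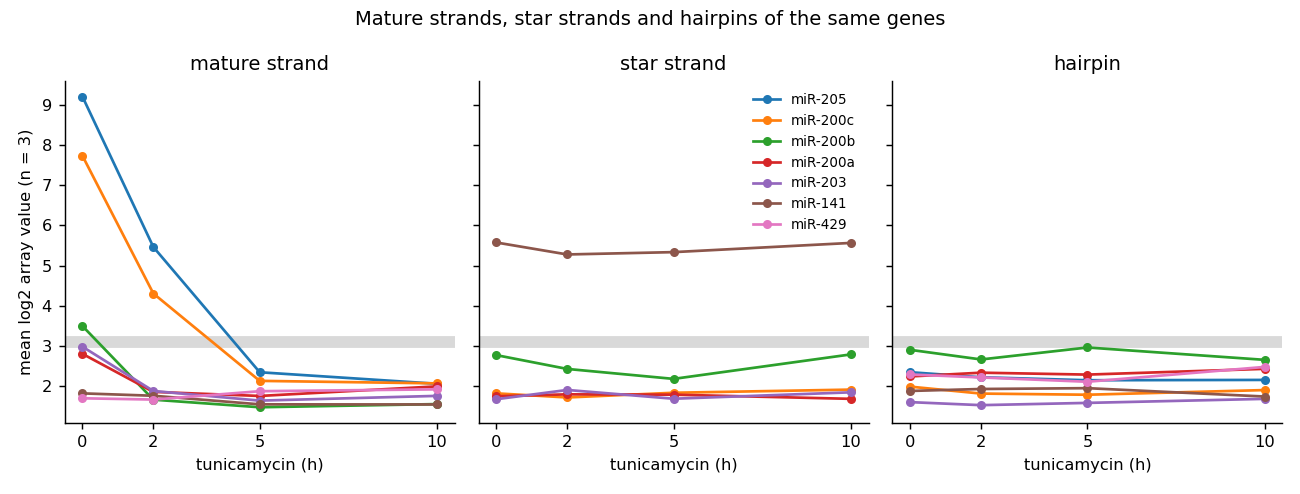
Mean log2 array value (n = 3 arrays) of the mature strands, star strands and hairpins of the same genes at 0, 2, 5 and 10 h of tunicamycin, with the range of the background limits as a grey band. Among the star strands and hairpins only miR-141* stood above the band, between 5.28 and 5.57, while the mature strands of miR-205 and miR-200c fell through it. MiR-205 and miR-429 had no star strand probe set, and 1 of the 2 miR-141 hairpin probe sets is drawn.

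Other miRNAs typical of epithelial cells were not called at any time. Of a list of 10, 6 were above the limit on all 0 h arrays (miR-182, miR-183, miR-96, miR-192, miR-194 and miR-449b) and the other 4 (miR-375, miR-215, miR-449a and miR-449c) on no array. No member of the list was called in either direction by limma at 2, 5 or 10 h. Of all mature probe sets, 13.2%, 8.37% and 12.7% were called at these times, so a list of 10 without a call is not far from that share. In the list, 1, 0 and 1 had an unadjusted p under 0.05 in limma, and the median log2 change was 0.01, 0.06 and 0.01. The summed linear level of the list was 4558 to 4631 on the 0 h arrays, 4321 to 4652 after 2 h, 4433 to 4802 after 5 h and 4824 to 4880 after 10 h. That of the 7 miRNAs was 800 to 875 on the 0 h arrays, 69.3 to 91.1 after 2 h, 24.3 to 25.9 after 5 h and 23.9 to 28.1 after 10 h. At 5 and 10 h all 7 were below the limit on every array, so these sums are background readings and no measured levels. The summed levels of the 7 at 0 h did not overlap those of any later time. At 0 h this sum was mostly miR-205 and miR-200c, and that of the other list was mostly miR-182 and miR-183.

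MiR-182 and miR-183, from the sensory and epithelial cluster that also holds miR-96, were above the limit on all 12 arrays and were taken for a direct comparison after their values were seen. MiR-183 averaged 9.74 ± 0.04, 9.82 ± 0.07, 9.71 ± 0.05 and 9.74 ± 0.0049 at 0, 2, 5 and 10 h, and miR-182 averaged 11.70 ± 0.02, 11.66 ± 0.05, 11.73 ± 0.07 and 11.82 ± 0.0013 (SD, n = 3 each). At 2 h, where miR-205 and miR-200c were still above the limit, the log2 change of miR-205 was lower than that of miR-182 by 3.71 and lower than that of miR-183 by 3.83. The change of miR-200c was lower by 3.40 and by 3.52. The differences between the miRNAs on the 2 h arrays did not overlap those on the 0 h arrays in any of these 4 pairs, and without 0 h array 2 the changes differed by −3.84 to −3.45. As the pair was picked with its values in view, these are descriptions and no test is given.

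Lists of the fibroblast's own miRNAs and of those tied to the epithelial-mesenchymal transition (EMT) changed little in size. Of the 11 fibroblast miRNAs, 1 was called lower and 3 higher at 2 h, 3 lower and 1 higher at 5 h, and 3 lower and 1 higher at 10 h, with medians of −0.02, 0.00 and −0.01. Of all mature probe sets, 5.86%, 4.04% and 7.11% were called lower and 7.39%, 4.32% and 5.58% higher at these times. At 10 h miR-199a-3p (−0.32, adjusted p = 2.4e-06 in limma) and miR-199b (−0.29, adjusted p = 6.2e-06), miRNAs of mesenchymal cells, were lower. Their means at 0, 2, 5 and 10 h were close, at 13.61, 13.55, 13.49 and 13.29 against 13.63, 13.55, 13.50 and 13.33. Whether their probes read the same strand was not tested, so these calls may not be separate signals. MiR-145, which favours smooth muscle differentiation, was higher (0.30, adjusted p = 2.4e-06 in limma). With each array shifted to 1 median, the calls of miR-199a-3p and miR-199b were lost (adjusted p = 0.056 and 0.098 in limma).

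Of 9 other miRNAs known to restrain EMT, 4, 1 and 2 were called lower at 2, 5 and 10 h, and none was called higher, beside the same 5.86%, 4.04% and 7.11% lower among all mature probe sets. The medians were −0.34, −0.06 and −0.11. The calls at 2 h, named after their values were seen, were miR-101b (−0.73, adjusted p = 0.012 in limma), miR-34c (−0.50, adjusted p = 1.5e-05), miR-34a (−0.41, adjusted p = 1.0e-04) and miR-30a (−0.34, adjusted p = 3.9e-04). They were kept with each array shifted to 1 median, and miR-101b was lost with quantile normalization (adjusted p = 0.055 in limma). The call at 5 h was miR-30c (−0.12, adjusted p = 0.043 in limma). The calls at 10 h were miR-34c, a target of p53 (−0.25, adjusted p = 0.0056 in limma), and miR-30b (−0.23, adjusted p = 0.0069). Both were lost with each array shifted to 1 median (adjusted p = 0.33 and 0.42 in limma). Of 6 EMT-promoting miRNAs, 1 was lower and 2 were higher at 2 h, and 1 was lower and none higher at 5 h and at 10 h. Of all mature probe sets, 7.39%, 4.32% and 5.58% were called higher at 2, 5 and 10 h. At 2 h miR-27a was lower (−0.28, adjusted p = 9.1e-06 in limma) and miR-155 higher (0.22, adjusted p = 0.017), both named after their values were seen. The call at 10 h was miR-10b, which Twist induces (−0.32, adjusted p = 3.1e-04 in limma, and 0.063 with each array shifted to 1 median). The same miRNA was called higher at 2 h (0.36, adjusted p = 1.0e-04 in limma) and lower at 5 h (−0.31, adjusted p = 8.7e-04).

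**Figure D5:**
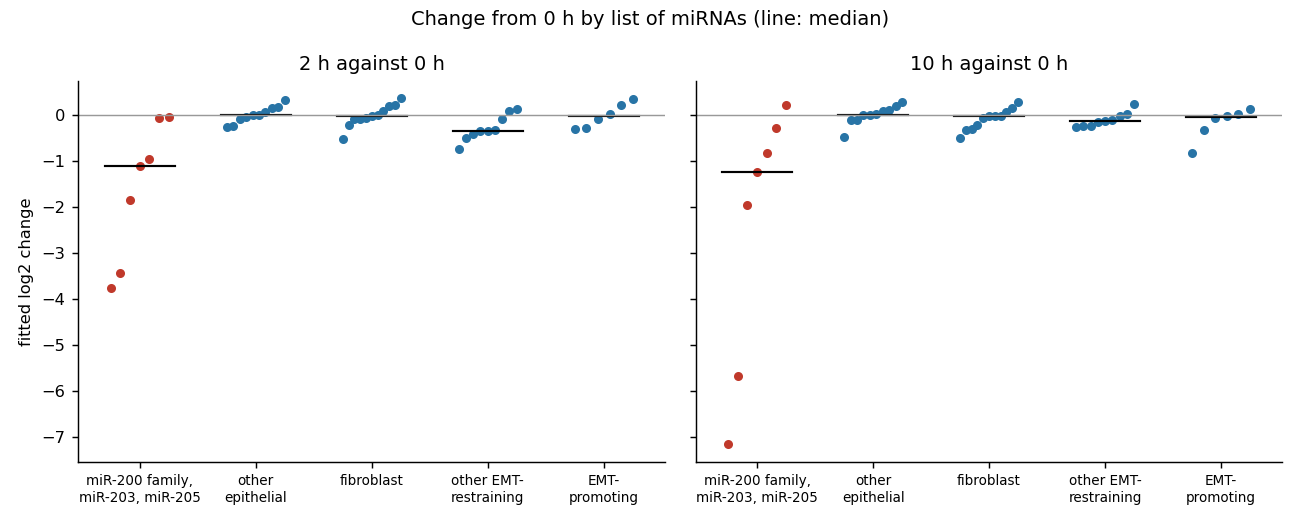
Fitted log2 change at 2 h and at 10 h against 0 h for each miRNA of 5 lists, with a line at the median of the list. The 7 miRNAs in red span −3.75 to −0.03 at 2 h and −7.17 to 0.22 at 10 h. The 10 other epithelial miRNAs lie between −0.25 and 0.34 at 2 h and between −0.47 and 0.30 at 10 h.

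Markers of other cell types were mostly at background. Of 7 blood cell, 2 endothelial, 1 liver and 9 pluripotent cell miRNAs, none was above the limit on all 3 arrays of 0 h. Of 4 muscle and 4 neural miRNAs, 1 each was, namely miR-206 and miR-128. No miRNA of these lists was called at 2, 5 or 10 h by limma, beside 13.2%, 8.37% and 12.7% of all mature probe sets in either direction. An unadjusted p under 0.05 in limma occurred for 1 neural and 1 pluripotent cell miRNA at 5 h only. The summed linear level of the blood cell list was 28.6 to 38.7 on the 0 h arrays, 34.2 to 44.0 after 2 h, 30.5 to 34.0 after 5 h and 32.8 to 40.5 after 10 h, and the range at 0 h overlapped those of all later times. Of this list, 5 of 7 were above the limit on no array, so much of the sum is background.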

How the data were processed

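RNA was purified with miRNeasy, labelled with FlashTag biotin and hybridised to Affymetrix GeneChip miRNA arrays. The authors deposited log2 values per probe set, for which the submitters' processing notes name RMA without a version. Their methods used GeneSpring with t-tests and analysis of variance. Neither array version nor annotation build is given in the sources used here. Another deposited table held the same values (largest difference 0), beside the authors' means and columns of their own comparisons (p-values, ratios, fold changes), which were not used. Of 1412 mouse probe sets, 717 mature sets, of which 121 are star strands, entered a fit in limma 3.58.1 under R 4.3.3 (eBayes with trend, time as a factor, two-sided, Benjamini-Hochberg adjustment, threshold 0.05), 690 hairpins were fitted separately, and 5 with an older annotation name were left out. A fold is given as "at least" where no array of the dimmer time point exceeded its limit, from the brighter mean to the limits, and not where this held for both. No further normalization was applied, and replicate arrays shared at most 0.283% of equal values. The number of arrays limits the precision, with a median standard error of 0.156 at 10 h. Named were the 7 miRNAs, their star strands and hairpins, the 5 probe sets most like miR-205 and miR-200c over the arrays, sequences within 4 edits, and up to 3 calls at 10 h in each list. The members and lists were chosen with earlier results of these data known. Added after seeing the data were the comparison with miR-182 and miR-183 and the block over the 0 h and 5 h arrays alone. So were the miRNAs named at 2 and 5 h in the list of EMT-restraining miRNAs, and miR-27a and miR-155 in that of EMT-promoting miRNAs. Deviations from the group means of same-numbered arrays correlated in all 3 pairs between 0 h and 5 h (r between 0.19 and 0.60). Of all 18 same-numbered pairs between time points, 4 were over 0.1. Deviations within a group of 3 depend on each other, and array 2 stood apart in both groups. Differently numbered arrays were not compared, so these values do not show that the numbers pair the arrays, and the labels do not say so. The fit was tested on simulated data with independent noise, without a background floor or deviations shared by arrays. That test therefore does not cover the dim members or the deviating arrays. Exact permutation tests used scipy 1.17.1. Alternatives changed the scaling, the filter on dim probes, which probe sets or arrays were fitted, array weighting, the variance model, the test (the methods' t-test), the minimum change, the background limit and the replicate block, and left out each array in turn.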

Additional observations from a re-analysis of the deposited data

Results flagged for a closer look

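Later times differed from 2 h for a pair of miRNAs, by a test of the difference itself. For miR-205 the fitted log2 difference of 5 h against 2 h was −3.12 (adjusted p = 2.9e-07 in limma) and that of 10 h against 2 h was −3.41 (adjusted p = 6.4e-08). For miR-200c these differences were −2.18 (adjusted p = 3.2e-05 in limma) and −2.24 (adjusted p = 2.1e-05). In each of the 4 comparisons the 3 later arrays were all below the 3 at 2 h, which held for 12.6% of mature probe sets at 5 h and 15.1% at 10 h. As the later arrays were below the background limit, the measured falls are bounds, at least 5.16-fold and 5.19-fold for miR-205 and at least 2.31-fold and 2.32-fold for miR-200c.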

How the results depend on the processing

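The changes of miR-205 and miR-200c at 2, 5 and 10 h against 0 h kept their direction and call in all alternatives run (27 at 2 and 10 h, 28 at 5 h), between −3.89 and −3.55, −6.99 and −6.75, and −7.19 and −7.08 for miR-205, and between −3.56 and −3.32, −5.71 and −5.49, and −5.88 and −5.47 for miR-200c. With the limit at 2 or 4 times the spread, the bound for miR-205 was 88.2-fold or 54.8-fold at 5 h and 88.4-fold or 55.4-fold at 10 h, and for miR-200c 31.7-fold or 19.7-fold at 5 h. The count of members called lower at 2, 5 and 10 h, which was 5, came to 2 among the brighter 50% of probe sets, 2 among those above the limit on at least 3 arrays (both leave out the dim members), 3 with the methods' t-test and 2 with a minimum log2 change of 1, and to 4 to 5 with 1 array left out. The count with a change over time, also 5, was 2 under both filters. At 5 h against 2 h, a minimum change of 1 left 1 of 2 calls, that of miR-205, and miR-200c was lost (adjusted p = 0.066 in limma). MiR-200b was not called with the t-test or the minimum change, and miR-203 not with the minimum change. MiR-200a lost its call at 2, 5 and 10 h in 3 of 25, 4 of 26 and 8 of 25 alternatives. It had −0.74 at 2 h without 2 h array 1 (adjusted p = 0.068 in limma), −0.91 at 5 h without 5 h array 2 (0.053), and at 10 h it had −0.75 (0.069) without 0 h array 2, −0.82 (0.054) without 0 h array 3 and −0.66 (0.13) without 10 h array 2. The cause was not tested. Signs turned only for uncalled values near 0. With 1 array left out, miR-141 at 2 h ranged between −0.19 and 0.02, miR-429 at 2 h between −0.18 and 0.06 and miR-141* at 10 h between −0.15 and 0.12. MiR-429 at 5 h was −0.04 with the second arrays of 0 h and 5 h both left out. MiR-141* at 10 h was 0.07 with each array shifted to 1 median and 0.09 with quantile normalization. Over all 12 arrays, with the replicate block 76, 45 and 82 of all probe sets were called at 2, 5 and 10 h, against 95, 60 and 91 without it, and the number of members called lower stayed at 5. No star strand or hairpin of the members was called at 10 h in any of 26 alternatives. Apart from miR-141*, only 4 of 96 hairpin values and 1 of 48 star strand values were above the limit. The missing calls therefore do not show that these strands and precursors were unchanged. Signal over background limits the dim members, of which 4 were above the limit on no array.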
